A study of Mus musculus with 6 samples.

Results

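Proximal tubule S1 cells were defined here as the barcodes that carried the messages of both sodium-coupled transporters of the first tubule segment, Slc5a12 for lactate and Slc5a2 for glucose. A barcode was counted as an S1 cell when it held at least 3000 UMIs, at most 50% of them mitochondrial, at least 3 UMIs of Slc5a12 and at least 1 of Slc5a2, with 0 UMIs of Slc7a13 and Slc22a30 (later proximal segments), Slc12a1 (thick ascending limb), Ptprc (leukocytes) and Havcr1 (injured tubule). The cells were thus chosen by measured values, and the levels of these genes are given only as a description. In all, 2271 of the 76774 barcodes in the 6 libraries, or of the 43426 with enough UMIs and few enough mitochondrial ones, were S1 cells.

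The libraries were 10x Genomics single-cell preparations of whole kidneys from male C57BL/6 mice aged 8 to 10 weeks, with 3 sham and 3 DOCA-salt samples. DOCA, deoxycorticosterone acetate, is a mineralocorticoid that is given with salt to raise blood pressure and injure the kidney. DOCA-salt mice lost the left kidney, received 1 week later a 50 mg subcutaneous DOCA pellet, and drank 1% NaCl for 21 days. Sham mice had a sham operation and normal water, so the effects of DOCA, of salt and of having 1 kidney cannot be told apart. No mutation or transgene was named for any of the 6, and the time of day of the harvest was not given in the sources used here. The labels number the samples of a group but do not say whether each came from its own mouse; they are called mice below, and p-values measure the spread between these samples.

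The S1 segment lies directly behind the glomerulus, and its brush border and deep endocytic apparatus recover most of the filtered glucose, amino acids, phosphate, bicarbonate and small proteins. It takes up glucose through the high-capacity cotransporter encoded by Slc5a2 and neutral amino acids through the transporter encoded by Slc6a19, and it makes glucose and ammonia. When proximal tubule cells are injured they lower such transport genes and switch on genes of injury and repair, among them Spp1, Vcam1, Sox9 and fibrinogen chains.

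The gate held 263, 308 and 277 cells in the 3 sham mice and 446, 535 and 442 cells in the 3 DOCA-salt mice. Their summed UMIs ran from 2801407 to 3862230 in sham mice and from 5123017 to 8163478 in DOCA-salt mice, out of 93172739 to 137819127 UMIs per library, so the DOCA-salt sums were the deeper ones. Median UMIs per S1 cell were 12401, 12570 and 9897 in sham mice and 12507.5, 14320 and 10908 in DOCA-salt mice, and the median mitochondrial share was 20.2% to 27.6% and 22.9% to 24.5%. Between any 2 libraries 33 to 69 barcode sequences were shared, at most 0.525% of the smaller library, and 1 of these was an S1 cell in both DOCA-salt 2 and DOCA-salt 3. No doublet caller was run. Values near the limits were common: 255 S1 cells had exactly 3 UMIs of Slc5a12 and 82 had exactly 1 of Slc5a2, while 418 barcodes met all other limits with 2 UMIs of Slc5a12 and 47 with none of Slc5a2.

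The label was checked against Slc6a19, the S1 marker that the gate did not use. In sham mice Slc6a19 stood at 405 CPM (counts per 1000000 UMIs of the summed cells) in S1 cells, 71.8 in S2-like cells (at least 3 UMIs of Slc22a6, no Slc5a2), 28.1 in S3 cells (at least 3 UMIs of Slc7a13, no Slc5a2 or Slc5a12) and 16.5 in thick ascending limb cells (at least 3 UMIs of Slc12a1). At 3000 UMIs per cell, Slc6a19 was seen in 62.8, 62.7 and 71.9% of S1 cells of the sham mice. In the DOCA-salt mice these shares were 53.6, 51.4 and 44.5%, and the mean level was 240 CPM in S1 and 15.3 CPM in S3 cells. The marker was thus seen in gated cells of every library, in a smaller share of them in DOCA-salt mice. Slc5a12 stood at 879 ± 59.8 CPM (SD, n = 3) in sham and 943 ± 86.4 in DOCA-salt S1 cells, and Slc5a2 at 788 ± 169 and 763 ± 68.5, values that the gate itself sets in part.

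S1 cells were a larger share of the kept barcodes after DOCA-salt under this gate, but not under every gate. They made up 3.42%, 5.01% and 4.24% of kept barcodes in sham mice and 5.70%, 6.52% and 6.28% in DOCA-salt mice, so every DOCA-salt mouse lay above every sham mouse. The difference of 1.94 percentage points had an exact two-sided permutation p of 0.1, the smallest that 3 against 3 mice can give. The gate's exclusion of Slc22a30 bore on this share: among barcodes with enough Slc5a12 and Slc5a2, 70.9% to 73.8% carried a UMI of Slc22a30 in sham mice and 50.8% to 57.4% in DOCA-salt mice. With no limit on Slc7a13 and Slc22a30, an alternative chosen after seeing the data, the shares were 14.0%, 20.04% and 15.3% in sham mice and 13.9%, 12.6% and 13.1% in DOCA-salt mice, which reverses the direction. With each barcode thinned to 3000 UMIs before the gate the groups overlapped, at 4.58%, 6.18% and 4.87% against 5.59%, 5.94% and 5.93%. Slc22a30 itself stood at 22.2 to 39.0 CPM in sham and 14.4 to 25.9 CPM in DOCA-salt thick ascending limb cells, whose own exclusions did not use it, and at 157 to 173 and 69.7 to 95.02 CPM in the barcodes with enough Slc5a12 and Slc5a2.

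**Figure D1:**
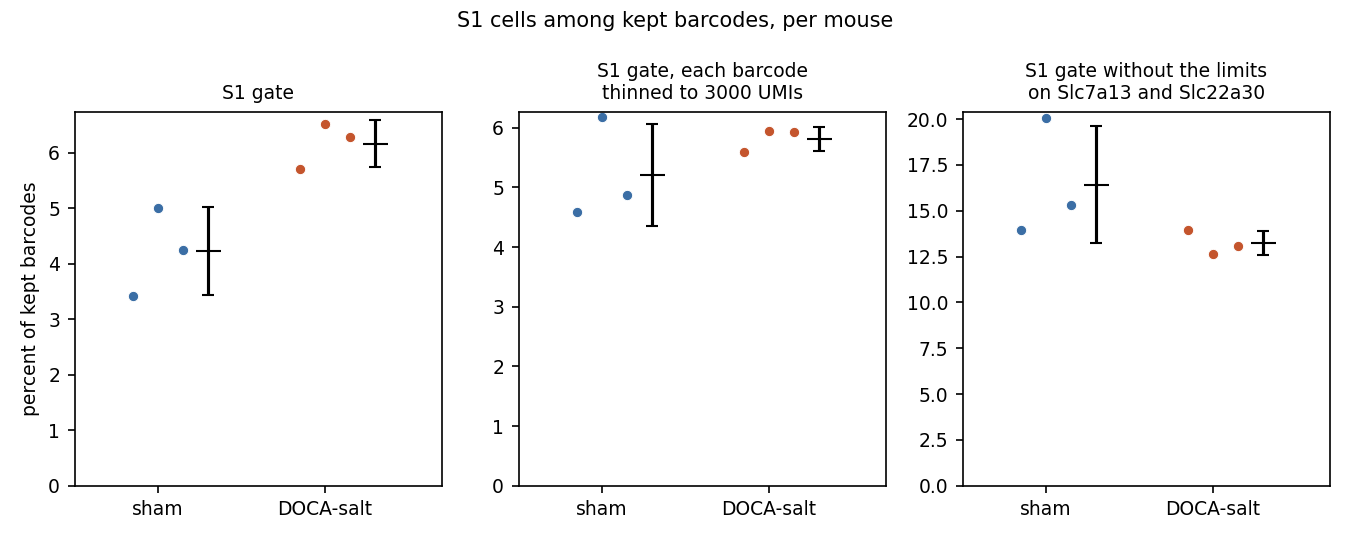
S1 cells as a percent of kept barcodes (vertical axes, each from 0) in each mouse (points), with mean and SD (bars, n = 3), for the gate as used, for the gate after thinning each barcode to 3000 UMIs, and for the gate without limits on Slc7a13 and Slc22a30. The DOCA-salt mice lie above the sham mice in the first panel, overlap them in the second and lie below them in the third.

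At an equal depth of 3000 UMIs the median S1 cell held 1398, 1325 and 1324 genes in sham mice and 1391, 1371 and 1419 in DOCA-salt mice. These ranges overlapped, and the difference of 44.7 genes had an exact permutation p of 0.3.

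UMIs were summed over the S1 cells of each mouse, and the sums were compared between the groups. Of 11707 genes tested with edgeR's quasi-likelihood test, 162 (1.38%) were higher and 52 (0.444%) lower in DOCA-salt mice at a Benjamini-Hochberg adjusted p below 0.05, and the median log2 change over all tested genes was -0.02. At an unadjusted p below 0.05 in the same test, 951 genes were higher and 753 lower. The number of calls thus does not measure how many genes changed. The groups did not overlap in 2387 genes, 20.4% of those tested. Leaving out 1 mouse at a time moved the number higher to between 49 and 187 and the number lower to between 10 and 125. The mitochondrial genes, whose share the gate bounds, and the gate genes with enough counts stayed among the genes fitted, and none of them was called. Their test results are not reported here, since the gate sets or bounds their values. The gate kept 14.5%, 19.6% and 17.8% of barcodes with enough Slc5a12 and Slc5a2 in sham mice. In DOCA-salt mice it kept 25.5%, 28.2% and 33.1%. The make-up of the S1 cells may thus differ between the groups, and its part in the gene changes was not tested. The plot of the largest changes shows the 12 genes that rose most and the 12 that fell most, taken from called genes that averaged 20 CPM or more over the 6 mice and whose groups did not overlap. The lack of overlap in these genes was thus fixed by the choice and is no result. CPM given for each mouse use the library sizes of the fit, scaled by TMM (trimmed mean of M values), whereas CPM averaged by gate and those of marker lists are unscaled, so the same gene can differ a little between them. The comparison was repeated under 21 alternatives, 6 of them without 1 mouse, and where a call was lost the text gives the highest adjusted p over these.

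**Figure D2:**
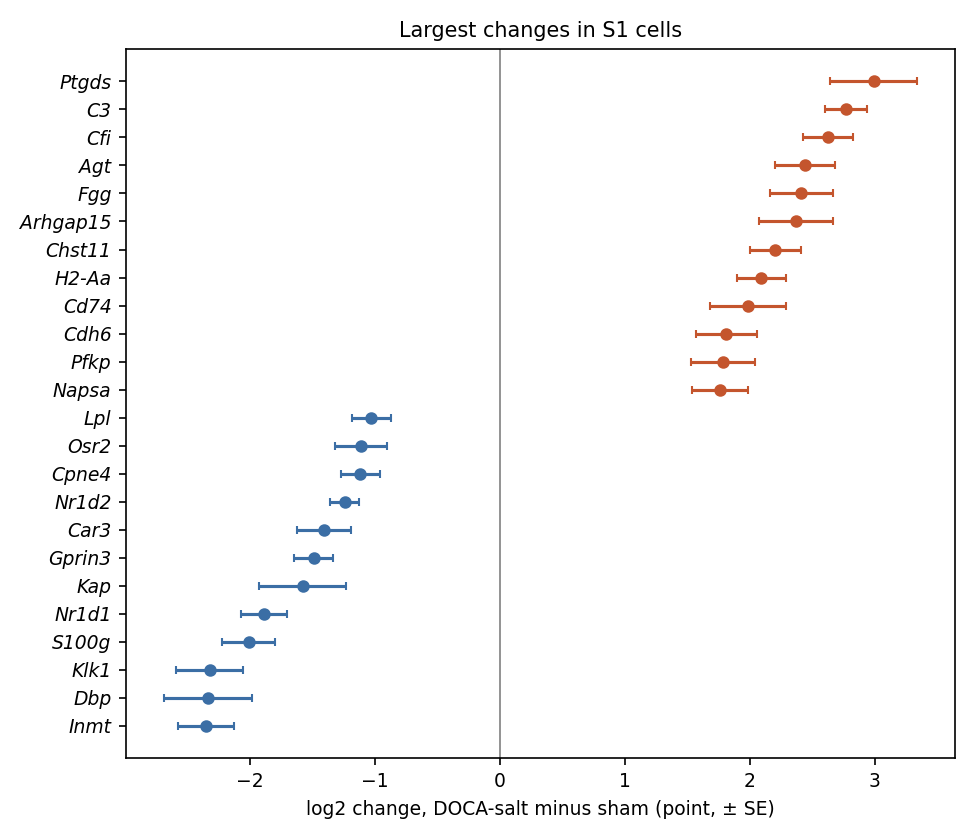
Log2 change between DOCA-salt and sham mice (horizontal axis, point ± SE, 3 against 3 mice) of the 12 genes with the largest rise and the 12 with the largest fall in S1 cells. The changes run from 2.99 for Ptgds to -2.35 for Inmt.

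The largest rises included genes of complement and fibrinogen. C3, the central complement protein (chr17:57510964-57535155, GRCm39), stood at 16.6, 14.6 and 11.7 CPM in the sham mice and 96.6, 85.9 and 113 CPM in the DOCA-salt mice. The lowest DOCA-salt mouse was several times above the highest sham mouse, a log2 change of 2.77 ± 0.17 (SE, adjusted p = 4.91e-05). Cfi, a protease that cuts activated complement (chr3:129629533-129668981), went from 6.65, 12.1 and 11.3 CPM to 56.9, 59.3 and 69.8 CPM, 2.62 ± 0.20 (adjusted p = 0.000247). C4b, upstream of C3 in the classical pathway, was low but higher in every DOCA-salt mouse than in any sham mouse. It stood at 1.51, 2.43 and 2.26 CPM in sham and 9.49, 14.2 and 10.7 CPM in DOCA-salt mice (2.47 ± 0.31, adjusted p = 0.00291).

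The 3 fibrinogen chains, which the liver makes for blood clotting, rose together. Fgg (chr3:82915030-82922363) was counted at 12.1, 26.1 and 16.99 CPM in sham and 122, 76.7 and 98.9 CPM in DOCA-salt mice, a log2 change of 2.41 ± 0.25 (adjusted p = 0.00096). Fga went from 14.5, 34.5 and 23.8 to 74.2, 58.95 and 72.7 CPM (1.49 ± 0.24, adjusted p = 0.0115), and Fgb from 4.23, 9.16 and 3.77 to 19.7, 17.3 and 15.01 CPM (1.55 ± 0.29, adjusted p = 0.0215). None of the 3 genes overlapped between the groups, a condition of the choice for Fgg. Fga lost its call without DOCA-salt 3 (adjusted p = 0.0572), and Fgb without any 1 mouse except sham 2 (adjusted p up to 0.14). Of 13 genes of complement and fibrinogen, a list put together after their values were seen, 12 were tested, 6 rose and none fell. Of all tested genes 1.38% rose and 0.444% fell. The median log2 change of the list was 1.57 against -0.02 over all tested genes. The complement gene with the highest level, Cfb of the alternative pathway, was at 114, 117 and 134 and 145, 152 and 128 CPM (0.22 ± 0.13, adjusted p = 0.473).

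These messages were also seen in more cells. At 3000 UMIs per cell, C3 was seen in 1.56, 0.606 and 3.19% of sham and 11.6, 10.4 and 12.6% of DOCA-salt S1 cells, and Fgg in 3.29, 6.17 and 4.19% and 21.7, 14.9 and 18.4%. In thick ascending limb cells of the same mice, whose median depth was 7690 to 10889 UMIs against 9897 to 14320 in S1 cells, C3 was seen in 0.629% and 2.32% and Fgg in 0.423% and 1.79%, on average over sham and DOCA-salt mice. Both shares in S1 cells of each DOCA-salt mouse thus exceeded the mean shares in thick ascending limb cells. The rise was not particular to S1 cells. In S3 cells Cfi, Fgg and Fga had log2 changes of 3.67, 2.10 and 1.27 (edgeR adjusted p 0.000856, 0.00662 and 0.0138). The changes of these genes in S1 and S3 cells did not differ past the threshold (adjusted p of the difference 0.361, 0.695 and 0.646).

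Ptgds, which makes prostaglandin D, had the largest rise among called genes averaging 20 CPM or more. It stood at 30.8, 26.4 and 7.55 CPM in sham and 129.7, 176 and 223 CPM in DOCA-salt mice (2.99 ± 0.35, adjusted p = 0.0019). In S3 cells Ptgds was at 0.503 and 11.8 CPM and rose too (log2 change 4.69, edgeR adjusted p = 0.0026). Agt, the precursor of angiotensin, went from 8.46, 6.47 and 4.15 to 33.4, 29.96 and 43.05 CPM (2.44 ± 0.24, adjusted p = 0.000674). Of the 10 tested genes of the angiotensin system and brush border peptidases, Agt alone passed the threshold. Of all tested genes 1.38% were higher and 0.444% lower, and a single called gene cannot be told apart from these shares. Agt was more abundant in S3 cells, at means of 25.4 CPM in sham and 70.8 CPM in DOCA-salt mice, and rose there too (log2 change 1.44, edgeR adjusted p = 0.0003). Chst11, a chondroitin sulfotransferase, went from 17.5, 12.7 and 18.5 to 68.1, 61.7 and 92.97 CPM (2.20 ± 0.20, adjusted p = 0.000578). Each of these genes was clearly higher in every DOCA-salt mouse, and the lack of overlap was a condition of their choice.

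The remaining large rises were Arhgap15, which shuts down Rac signalling (2.37 ± 0.30), the cadherin gene Cdh6 (1.81 ± 0.24), the glycolytic gene Pfkp (1.78 ± 0.26) and the aspartic protease gene Napsa (1.76 ± 0.22), with adjusted p between 0.00296 and 0.00622. Their sham values lay between 4.23 CPM for Arhgap15 and 55.9 CPM for Napsa, and none of them overlapped between groups, as their choice required. Napsa was more abundant in later segments of the same mice, at 876 CPM in sham and 2192 CPM in DOCA-salt S3 cells. In S3 cells the log2 changes were 2.74 for Cdh6, 2.07 for Pfkp and 1.27 for Napsa (edgeR adjusted p 0.00326, 0.00537 and 0.00826). For Arhgap15 it was 0.68, not past the threshold (adjusted p = 0.411).

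Genes that present peptides on MHC class II, a task of professional antigen-presenting cells that injured tubule cells can also take up, rose in the S1 sums. H2-Aa, an alpha chain, stood at 16.9, 16.7 and 13.2 CPM in sham and 50.7, 74.2 and 76.3 CPM in DOCA-salt mice (2.09 ± 0.19, adjusted p = 0.000578). Cd74, the invariant chain, went from 49.6, 33.4 and 82.3 to 141, 245 and 258 CPM (1.98 ± 0.30, adjusted p = 0.00906), H2-Eb1 from 14.8, 21.6 and 21.1 to 44.1, 59.4 and 80.7 CPM (1.68 ± 0.23, adjusted p = 0.00545) and H2-Ab1 from 34.1, 23.99 and 49.4 to 64.6, 137 and 119 CPM (1.60 ± 0.29, adjusted p = 0.0198). The groups overlapped in none of the 4, a condition of the choice for H2-Aa and Cd74. Cd74 lost its call without sham 1 (adjusted p = 0.0588), and H2-Ab1 without sham 1, DOCA-salt 2 or DOCA-salt 3 (adjusted p up to 0.0974). Of the 8 genes of a list chosen after their values were seen, 7 were tested, 4 rose and none fell, and the median log2 change was 1.68. Of all tested genes 1.38% rose and 0.444% fell.

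Several markers of macrophages, which carry MHC class II themselves, moved with these genes although the gate removed every cell with a UMI of Ptprc. In the S1 sums the 8 macrophage markers added up to 33.6 to 39.99 CPM in sham and 55.1 to 72.8 CPM in DOCA-salt mice. Of the 5 with enough counts to be tested, 3 were past the threshold and higher, C1qa, C1qc and Lyz2. Of all tested genes 1.38% were higher and 0.444% lower. C1qa was at 2.94, 0.518 and 1.07 CPM in sham and 8.39, 13.4 and 10.9 CPM in DOCA-salt mice. Csf1r, the receptor of macrophage growth factors, made up most of the sum in sham mice and was not higher, at 30.6, 31.8 and 28.2 CPM in sham and 28.3, 22.7 and 27.5 CPM in DOCA-salt mice. The macrophage receptor Adgre1 was at 0, 0.259 and 0 and 0.171, 1.22 and 0.976 CPM, and no macrophage marker was at 0 in all mice. H2-Aa was at 5.99 CPM in sham and 25.2 CPM in DOCA-salt thick ascending limb cells and at 126 and 449 CPM over all kept barcodes. The part of other cells' RNA in the change of these genes was not tested.

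The stretch before the transcription start of 2 of these genes is shown because both hold the Y box, CTGATTGG, a motif known from MHC class II promoters. The letters are RefSeq's for GRCm38.p6, a different build from that of the files, and give the 170 bases before the start of H2-Aa (chr17:34287824-34287993, minus strand) and H2-Eb1 (chr17:34305697-34305866, plus strand), 5′ to 3′ along the gene, with the Y box in capitals.
H2-Aa: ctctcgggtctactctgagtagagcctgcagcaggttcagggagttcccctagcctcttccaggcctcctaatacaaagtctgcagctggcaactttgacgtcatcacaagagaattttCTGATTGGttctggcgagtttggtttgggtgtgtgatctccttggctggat
H2-Eb1: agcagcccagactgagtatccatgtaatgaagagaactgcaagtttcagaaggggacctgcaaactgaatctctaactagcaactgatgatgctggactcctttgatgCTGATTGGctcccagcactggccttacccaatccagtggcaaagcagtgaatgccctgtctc
The Y box began 51 bases before the start of H2-Aa and 62 before that of H2-Eb1. On either strand, 3.83% of 32851 mouse promoters in the table held it within 250 bases, and Cd74 and H2-Ab1 had no entry. A match describes the letters and is not evidence of binding.

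Of the genes of tubular injury and repair, 16 rose and none fell. The list holds 41 genes without Havcr1, which the gate excludes, and was drawn up with earlier results of these data known, so its direction is not independent evidence. The 16 were among 36 members that passed the filter on low counts, 44.4% against 1.38% of all tested genes, and the median log2 change of the 36 was 1.06 against -0.02. The groups did not overlap in 26 of the 36, beside 20.4% of all tested genes. Besides C3 and the fibrinogen chains, the members that rose were Il34, Cryab, Lgals3, Tmsb10, Krt18, Sox4, Sox9, S100a11, Spp1, Lcn2, Vcam1 and Cd24a.

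Spp1, the secreted matrix protein osteopontin (chr5:104582165-104589235), was the most abundant of these. It stood at 1263, 2354 and 1193 CPM in sham and 5319, 3502 and 6382 CPM in DOCA-salt mice, all DOCA-salt mice above all sham mice, a 3.16-fold rise (1.66 ± 0.29, adjusted p = 0.0146), which was lost without sham 1, sham 3 or DOCA-salt 3 (adjusted p up to 0.0858). Il34, a growth factor for macrophages, went from 6.04, 7.01 and 5.66 to 21.2, 38.5 and 40.7 CPM (2.41 ± 0.28, adjusted p = 0.0019) and kept its call under all 21 alternatives tried. Sox9 and Vcam1 were named after their values were seen. Sox9, a transcription factor of tubule repair, had a log2 change of 2.76 ± 0.47 (adjusted p = 0.0135) from 1.51, 2.70 and 3.77 to 12.9, 11.4 and 29.5 CPM. Vcam1, an adhesion molecule of tubules that fail to repair, changed by 2.28 ± 0.40 (adjusted p = 0.0164) from 2.42, 2.96 and 5.28 to 9.32, 17.2 and 24.1 CPM. Both lost their calls with at most 20000 UMIs per cell or without sham 1, and Vcam1 also without DOCA-salt 3 or with at most 20% mitochondrial UMIs (adjusted p up to 0.0805 and 0.0937).

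Other members behaved less simply. Cryab, a small heat shock protein, went from 69.2, 87.05 and 65.3 to 281, 159 and 167 CPM (1.45 ± 0.22, adjusted p = 0.00889), but with each cell thinned to 3000 UMIs its log2 change was only 0.27, with an adjusted p of 0.661, and it lost its call under 4 of the 21 alternatives, the removal of sham 1 among them. The epithelial keratin Krt8 was at 162, 120.5 and 185 and 166, 138.4 and 126 CPM (-0.12 ± 0.17, adjusted p = 0.819), and the integrin subunit Itgb6 at 162, 174 and 107 and 205, 244 and 244 CPM (0.64 ± 0.18, adjusted p = 0.106). Neither passed the threshold, and the groups overlapped in Krt8 but not in Itgb6.

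At an equal depth of 3000 UMIs, 26 of the 41 injury genes were seen in a larger share of S1 cells in every DOCA-salt mouse than in any sham mouse, and none in a smaller share in every one. Of the 36 that passed the filter on low counts it was 22 and 0, beside 14.4% of all 11707 tested genes with a larger share in every DOCA-salt mouse and 5.26% with a smaller one. Spp1 was seen in 88.7, 96.1 and 87.1% of sham S1 cells and 99.5, 97.9 and 99.7% of DOCA-salt S1 cells, close to every cell in both groups. Its mean shares in thick ascending limb cells were 94.9% in sham and 98.5% in DOCA-salt mice, so this was not particular to S1 cells. Il34 was seen in 1.39, 1.65 and 1.68% and 4.97, 7.52 and 7.13%, Sox9 in 0.194, 0.202 and 0.900% and 2.69, 2.36 and 4.52%, and Vcam1 in 0.418, 0.419 and 1.38% and 1.82, 3.46 and 4.21%. At this depth the messages of Il34, Sox9 and Vcam1 were thus found in few S1 cells of either group. In thick ascending limb cells the means over sham and DOCA-salt mice were 8.97% and 13.2% for Il34, 2.21% and 3.91% for Sox9, above the mean share in S1 cells of the same group, and 0.487% and 1.56% for Vcam1, below it. No gene could reach an exact two-sided permutation p below 0.1, and adjusted over the 153 genes looked at the smallest was 0.178. Without thinning, Il34 was seen in a mean of 4.62% of sham and 18.6% of DOCA-salt S1 cells. For Sox9 these means were 1.08% and 8.49%, and for Vcam1 1.80% and 8.94%. Low shares at 3000 UMIs thus do not show that a message was confined to few cells.

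**Figure D3:**
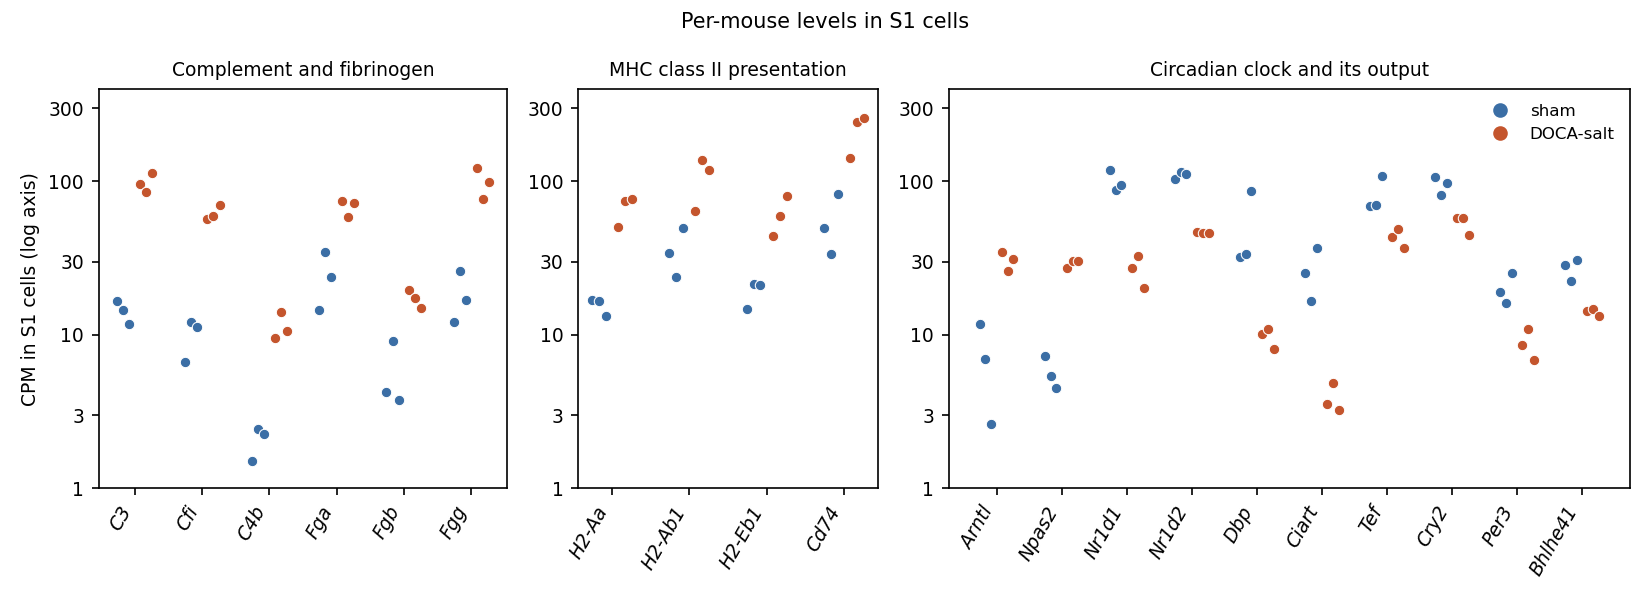
CPM in S1 cells (log axis) of each mouse, sham in blue and DOCA-salt in orange, for the genes past the threshold among complement and fibrinogen, MHC class II presentation and the circadian clock. No gene overlaps between the groups, and in the clock panel Arntl and Npas2 are higher and the other 8 lower in DOCA-salt mice.

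Among the falls, genes of the circadian clock stood out by number. Dbp, a transcription factor that the clock drives (chr7:45354512-45359627), was at 32.03, 33.4 and 86.4 CPM in sham and 10.2, 10.9 and 8.14 CPM in DOCA-salt mice (-2.34 ± 0.35, adjusted p = 0.00843). Nr1d1, a repressor of the clock loop (chr11:98658752-98666188), went from 119, 87.3 and 94.7 to 27.5, 32.9 and 20.3 CPM (-1.89 ± 0.19, adjusted p = 0.000674), and its relative Nr1d2 from 103, 115 and 112 to 46.9, 46.5 and 45.9 CPM (-1.24 ± 0.12, adjusted p = 0.000578). In all 3 genes the DOCA-salt mice lay far below the sham mice, although sham 3 held more Dbp than the other 2 sham mice and the call of Dbp was lost without DOCA-salt 3 (adjusted p = 0.0529).

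The activators of the loop moved the other way. Arntl, the partner of CLOCK, stood at 11.8, 7.01 and 2.64 CPM in sham and 34.9, 26.2 and 31.1 CPM in DOCA-salt mice (2.05 ± 0.32, adjusted p = 0.00906), and Npas2, which can stand in for CLOCK, at 7.25, 5.39 and 4.53 and 27.1, 30.3 and 30.4 CPM (2.34 ± 0.20, adjusted p = 0.000459). Ciart, a repressor of the loop, fell by 2.70 on the log2 scale (adjusted p = 0.00155), from 25.4, 16.7 and 36.6 to 3.56, 4.85 and 3.26 CPM. Of 19 genes of the clock and its output, a list chosen after their values were seen, 8 were lower and 2 higher. Of all tested genes 0.444% were lower and 1.38% higher, but a list so chosen is not independent evidence. The other 9 clock genes did not pass, among them Per2 (-0.56 ± 0.21, adjusted p = 0.246) and Hlf (-0.02 ± 0.14, adjusted p = 0.968). The smaller falls of Per3, Cry2, Bhlhe41 and Tef lost their calls without sham 1, without sham 3 or without DOCA-salt 3, and Bhlhe41 and Tef without any 1 mouse except sham 2 (adjusted p up to 0.185). In thick ascending limb cells Dbp went from 32.7 to 11.8 CPM and Nr1d1 from 41.6 to 16.2 CPM. The hour at which each mouse was killed was not given, so time of day and treatment cannot be told apart.

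The E box CACGTG, through which the clock's activators work, was found before 3 of the genes that fell, and the sequences of Tef and Bhlhe41 are shown for that reason. They are RefSeq's for GRCm38.p6, the 170 bases before the start of Tef (chr15:81802503-81802672, plus strand) and of Bhlhe41 (chr6:145865421-145865590, minus strand), with the E box in capitals.
Tef: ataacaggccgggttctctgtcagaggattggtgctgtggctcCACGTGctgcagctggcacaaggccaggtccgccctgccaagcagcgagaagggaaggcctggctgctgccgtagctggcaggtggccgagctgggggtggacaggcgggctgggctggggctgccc
Bhlhe41: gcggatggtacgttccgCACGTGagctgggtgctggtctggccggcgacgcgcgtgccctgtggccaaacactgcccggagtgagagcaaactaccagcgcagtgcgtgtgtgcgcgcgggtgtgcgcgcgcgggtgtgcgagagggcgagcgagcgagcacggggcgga
The E box began 127 bases before the start of Tef and 153 before that of Bhlhe41. It was found within 250 bases of the start in 6.02% of 32851 promoters. Among the 10 clock genes past the threshold, Tef, Bhlhe41 and Ciart held it in this window, and no match was found in the windows of the other 7, which says nothing of sites elsewhere.

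Other large falls were in genes of metabolism and transport. Inmt, a methyltransferase of small amines (chr6:55147606-55152028), stood at 203, 152 and 294 CPM in sham and 43.2, 47.5 and 35.6 CPM in DOCA-salt mice (-2.35 ± 0.22, adjusted p = 0.000592). Car3, a carbonic anhydrase, went from 111, 106 and 69.5 to 46.4, 34.3 and 26.9 CPM (-1.41 ± 0.22, adjusted p = 0.00906) and lost its call only without DOCA-salt 3 (adjusted p = 0.0518). Lpl, which releases fatty acids from lipoproteins, went from 51.4, 76.5 and 59.3 to 30.8, 28.99 and 32.2 CPM (-1.03 ± 0.16, adjusted p = 0.00906). All 3 genes were lower in every DOCA-salt mouse, as their choice required. Inmt and Lpl were more abundant in S3 cells and were lower there too after DOCA-salt. Inmt was at 1052 CPM in sham and 271 CPM in DOCA-salt S3 cells, and Lpl at 715 and 255 CPM. Car3 was less abundant in S3 cells, at 2.72 and 11.8 CPM. The part of RNA from other cells in these falls was not tested.

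Among regulators, Osr2, a zinc finger factor, fell from 226, 142 and 146 to 92.2, 85.03 and 60.6 CPM (-1.11 ± 0.21, adjusted p = 0.0207), and lost its call without sham 1, DOCA-salt 2 or DOCA-salt 3 (adjusted p up to 0.113). Cpne4, a calcium-binding membrane protein, fell from 67.1, 67.1 and 82.7 to 38.98, 32.9 and 27.5 CPM (-1.12 ± 0.16, adjusted p = 0.00545) and Gprin3 from 35.7, 29.9 and 38.1 to 12.5, 11.9 and 12.3 CPM (-1.49 ± 0.15, adjusted p = 0.00096), the last without its call when each cell was thinned to 3000 UMIs (adjusted p = 0.0624). Osr2 and Cpne4 had their highest levels among the gates in S1 cells, at 165 and 69.3 CPM in sham mice against 6.91 and 5.78 CPM in S3 cells.

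Some further falls were in genes with a higher mean level in another gate. Klk1, kallikrein of the distal nephron, went from 73.1, 169.5 and 103 to 27.6, 20.6 and 21.3 CPM in S1 cells (-2.32 ± 0.27, adjusted p = 0.0019), while in thick ascending limb cells it stood at 2629.9 and 1531 CPM. S100g, a calcium buffer of the distal tubule, went from 264, 169 and 214 to 40.0, 67.3 and 52.3 CPM (-2.01 ± 0.21, adjusted p = 0.00096), against means of 288 and 194 CPM in thick ascending limb cells, 179.8 and 73.8 CPM in S3 cells and 938 and 443 CPM over all kept barcodes. Kap, the androgen-dependent kidney protein of the later proximal tubule, went from 1770.4, 974 and 2803 to 835, 394 and 628 CPM (-1.58 ± 0.35, adjusted p = 0.048), below its level in thick ascending limb cells (3591 and 2396 CPM) and far below that in S3 cells (52739.6 and 54176 CPM). In all 3 genes the mean S1 level was under that of thick ascending limb cells in both groups, although for S100g the values of single mice overlapped between the gates, and the part of RNA from other cells in these falls was not tested. Kap lost its call under 8 of the 21 alternatives, among them the removal of any 1 mouse except sham 2 (adjusted p up to 0.201), and Klk1 with at most 20% mitochondrial UMIs or with at most 20000 UMIs per cell (adjusted p up to 0.151).

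Among the transport genes of S1 function, few passed the threshold by number. Of all tested genes 1.38% were higher and 0.444% lower, and these shares are the reference for the counts of this and the following lists. A list with a single called gene is too short to be told apart from them here. Of 18 tested genes of amino acid transport 1 fell, Slc6a19, from 367, 377 and 524 CPM in sham to 263, 243 and 194 CPM in DOCA-salt mice (-0.86 ± 0.17, adjusted p = 0.0333), a 1.81-fold fall with no overlap. That call was lost under 8 of the 21 alternatives, among them the removal of any 1 mouse except sham 2 (adjusted p up to 0.185). Its partner Cltrn, which carries it to the brush border, was at 1979, 1973 and 2155 and 1516, 1733 and 1334 CPM (-0.41 ± 0.15, adjusted p = 0.212), and the amino acid exchanger Slc7a8 at 452, 573 and 349 and 498, 368 and 409 CPM (-0.11 ± 0.19). Neither passed the threshold.

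Of 27 tested genes of sodium, acid-base, phosphate and water transport, 1 rose, the citrate transporter Slc13a2, from 12.99, 11.3 and 17.7 to 27.3, 30.8 and 24.8 CPM (1.00 ± 0.19, adjusted p = 0.0221), and lost its call under 7 of 21 alternatives, among them the removal of sham 1 or of any DOCA-salt mouse (adjusted p up to 0.369) and the gate without limits on Slc7a13 and Slc22a30 (log2 change 0.33). The phosphate transporter Slc34a1 was at 5449.7, 4508 and 5071 CPM and 3832, 4363 and 3572 CPM (-0.35 ± 0.15, adjusted p = 0.321), lower in every DOCA-salt mouse but not past the threshold. The sodium-proton exchanger Slc9a3 (0.09 ± 0.13) and the basolateral bicarbonate transporter Slc4a4 (0.20 ± 0.17) had adjusted p of 0.812 and 0.653. For both genes the groups overlapped.

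Pck1, which commits carbon to glucose and is a step of ammonia production, rose 2.06-fold. It stood at 552, 533 and 610.0 CPM in sham and 1347, 1056 and 1083 CPM in DOCA-salt mice (1.04 ± 0.15, adjusted p = 0.00554), every DOCA-salt mouse far above every sham mouse, and kept its call under all 21 alternatives. It was the 1 gene past the threshold of 13 tested for glucose transport and gluconeogenesis and the 1 of 7 for ammoniagenesis, since it is on both lists. The gluconeogenic enzyme Fbp1 (-0.33 ± 0.14) and the basolateral glucose carrier Slc2a2 (-0.18 ± 0.14) did not pass, with adjusted p of 0.296 and 0.625.

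None of the 20 tested genes of megalin-cubilin endocytosis passed, at a median log2 change of -0.12. Of all tested genes 1.38% were higher and 0.444% lower, so a list of this size can hold none without differing from the rest. Megalin, Lrp2, which binds filtered proteins, was at 1080.0, 1506 and 1165 and 1287, 1185 and 1329 CPM (0.02 ± 0.16, adjusted p = 0.978), and its partner Cubn at 210.0, 306 and 279 and 269, 221 and 198 CPM (-0.21 ± 0.17, adjusted p = 0.633). The groups overlapped in both. In organic ion transport 1 of 16 tested genes fell, Slco1a6 (-0.71 ± 0.15, adjusted p = 0.0347), and in fatty acid oxidation 1 of 33, the fatty acid carrier Fabp3 (-0.68 ± 0.15, adjusted p = 0.042). Leaving out sham 1, sham 3, DOCA-salt 2 or DOCA-salt 3 cost both their calls, and for Fabp3 leaving out any 1 mouse did (adjusted p up to 0.162 and 0.197). Of 34 tested genes of the nuclear-encoded respiratory chain none passed, while 32 of the 34 changes were negative, with a median of -0.25.

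The steroid and signalling lists, the ones nearest to the DOCA treatment, gave no gene past the threshold. Of all tested genes 1.38% were higher and 0.444% lower, so lists of this size can hold none without differing from the rest. The counts do not show that a response was absent. None of 18 tested genes of the mineralocorticoid and glucocorticoid response passed (median 0.01). The mineralocorticoid receptor Nr3c2 was at 46.2, 57.1 and 68.7 and 54.1, 42.2 and 39.1 CPM (-0.34 ± 0.17, adjusted p = 0.398), and the glucocorticoid receptor Nr3c1 at 91.9, 95.9 and 114 and 107, 106 and 96.04 CPM (0.04 ± 0.13, adjusted p = 0.937). The groups overlapped in both. The NADPH oxidase Nox4 was at 901, 1424 and 1263 and 1274, 930.1 and 933 CPM (-0.19 ± 0.19, adjusted p = 0.702). None of 12 tested genes of ATP release, purinergic signalling and pyroptosis passed, the receptor P2rx4 being at 29.9, 25.1 and 25.7 and 31.4, 30.9 and 28.4 CPM (0.17 ± 0.14, adjusted p = 0.637), and the other 11 listed genes, the channel Panx1 among them, had too few counts to be tested.

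In the list of endoplasmic reticulum stress 2 of 15 tested genes rose, the chaperone Hspa5, from 383, 359 and 281 to 938, 509.6 and 704 CPM (1.07 ± 0.21, adjusted p = 0.0294), and the transcription factor Xbp1 (0.70 ± 0.15, adjusted p = 0.0428), and both lost their calls without sham 1, without DOCA-salt 1 or without DOCA-salt 3 (adjusted p up to 0.117 and 0.201), as did Hspa5 without sham 3 and Xbp1 without sham 2 or DOCA-salt 2. Of 21 tested interferon-stimulated genes 2 rose, both of antigen presentation, Cd74 and B2m (0.85 ± 0.15, adjusted p = 0.0152), B2m losing its call without sham 1, sham 3 or DOCA-salt 3 (adjusted p up to 0.0872). The list had a median log2 change of 0.61. Of 12 tested male-biased genes Kap and Cyp4a12a fell, the latter by 2.08 on the log2 scale (adjusted p = 0.0132), and none of 5 female-biased genes passed. Cyp4a12a, which reads may share with its near copies, lost its call without sham 3, DOCA-salt 2 or DOCA-salt 3 (adjusted p up to 0.0665).

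Of 17 tested transcription factors of the proximal tubule, Osr2 and Foxo3 (-0.69 ± 0.14, adjusted p = 0.0331) fell and Pax2 rose (0.62 ± 0.13, adjusted p = 0.0449). Klf2 (-0.87 ± 0.15, adjusted p = 0.0127) was the 1 of 28 immediate early and dissociation genes that passed, and Igfbp1 (-1.41 ± 0.24, adjusted p = 0.0146) the 1 of 18 growth and cell cycle genes. Foxo3, Pax2, Klf2 and Igfbp1 each lost their calls when any of several single mice was left out, DOCA-salt 3 in every case, and Pax2 when any 1 mouse was (adjusted p up to 0.185, 0.407, 0.117 and 0.285). No gene passed among 27 tested of the antioxidant list, 19 of cholesterol synthesis (median -0.43) and 7 of vitamin D and klotho.

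**Figure D4:**
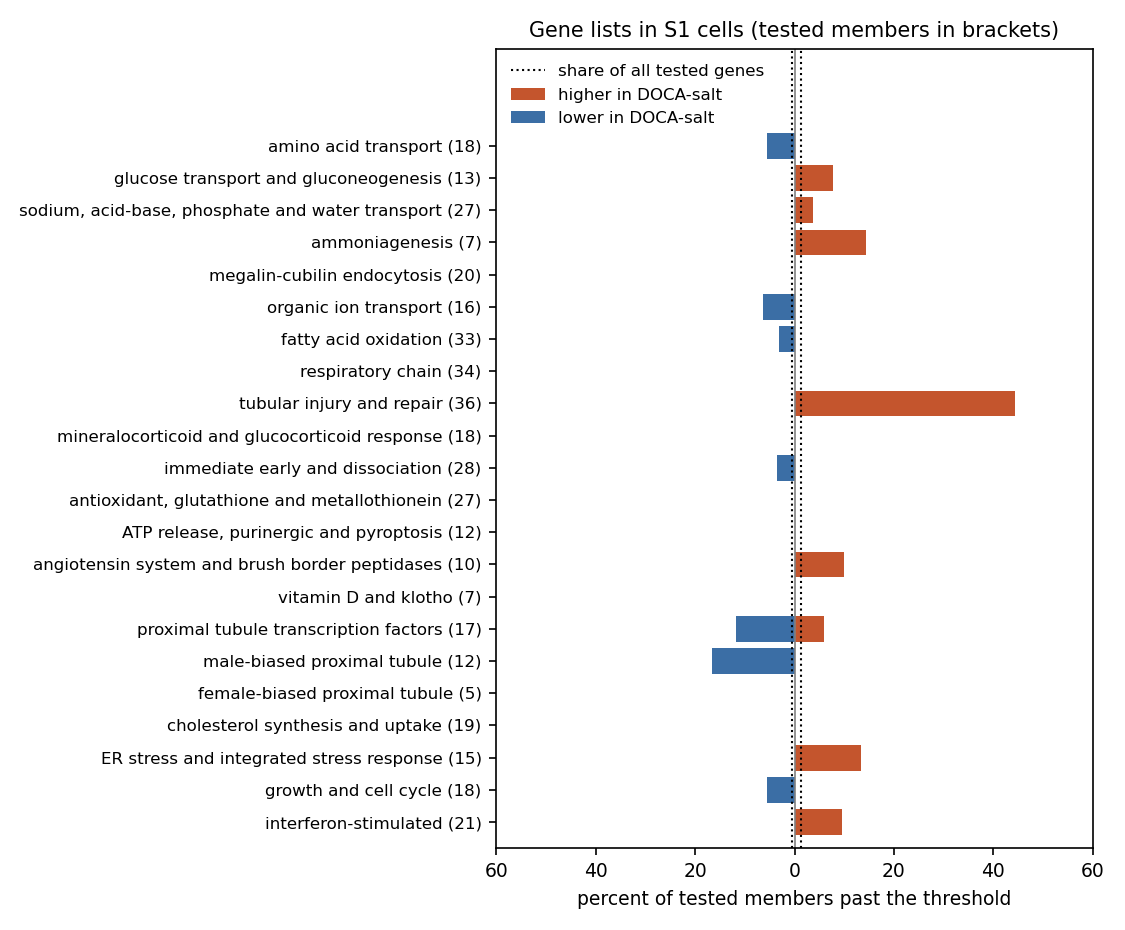
Percent of the tested members of each pathway list (the complement, MHC class II and clock lists are not drawn) that were higher (right, orange) or lower (left, blue) in DOCA-salt S1 cells at an adjusted p below 0.05, with tested members in brackets and the shares of all tested genes, 1.38% and 0.444%, as dotted lines. The injury and repair list reaches 44.4%, and every other bar drawn stands for 1 or 2 genes.

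Beside the macrophage genes, most marker lists of other cell types overlapped between the groups. An exception was the list of later-segment S3 markers left after the gate genes, whose 4 genes added up to 55.1 to 69.6 CPM in sham and 84.2 to 92.7 CPM in DOCA-salt mice, every DOCA-salt mouse above. Of these 4, 2 were tested, and Slc16a9 passed the threshold, at 32.6, 31.1 and 31.8 and 56.8, 54.3 and 53.7 CPM. Atp11a overlapped between the groups, at 27.1, 22.0 and 33.2 and 25.2, 29.9 and 34.4 CPM. Acsm3, at 3.82, 1.55 and 3.93 and 0.685, 0.98 and 1.76 CPM, did not follow the rise. Cyp7b1 was at 0.882, 0.518 and 0.714 and 1.54, 1.22 and 2.93 CPM. Acsm3 and Cyp7b1 had too few counts to be tested. The 5 intercalated cell markers overlapped as a sum (20.5 to 68.8 and 21.1 to 41.95 CPM), but Slc26a4 passed and was lower, at 16.8, 8.54 and 8.21 and 5.48, 3.55 and 3.51 CPM. The 4 thick ascending limb markers left after the gate gene added up to 47.9 to 188 CPM in sham and 92.6 to 112 CPM in DOCA-salt mice. The 7 fibroblast markers ranged from 2.33 to 208 CPM in sham and from 33.9 to 256 CPM in DOCA-salt mice, sham 3 being high through Mgp (3.23, 2.07 and 137 CPM in the sham mice). The 5 smooth muscle markers, 11.8 to 22.8 CPM in sham and 22.8 to 86.7 CPM in DOCA-salt mice, stood highest in DOCA-salt 3. With S1 cells limited to those with no UMI of 8 markers of other types, 122 genes were higher and 45 lower.

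The response of S1 cells was then set against that of S3 cells of the same mice, 1857 cells, in 1 model with the mouse as a block. Of 12344 genes tested, the change in S1 cells exceeded that in S3 cells in 51 genes (0.413%) and fell short of it in 124 (1.00%) at an adjusted p below 0.05. Leaving out 1 mouse gave 26 to 52 and 51 to 168 genes. Of the 214 genes called in S1 cells, 23 differed from S3 cells in this test.

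Chst11 rose in S1 cells and had a log2 change of 0.19 in S3 cells. Its mean was 15.6 ± 2.95 CPM in sham and 77.2 ± 20.3 CPM in DOCA-salt S1 cells (SD, n = 3). In S3 cells it was 75.4 ± 9.11 and 87.4 ± 18.4 CPM, so the means of the gates lay closer in DOCA-salt than in sham mice. The S1 gate kept a larger part of the barcodes with enough Slc5a12 and Slc5a2 in DOCA-salt mice. The part of this in the rise of Chst11 was not tested. The difference between the 2 log2 changes was 2.05 ± 0.15 (edgeR adjusted p = 2.58e-06). The organic anion transporter Slco3a1 (1.35 ± 0.17, adjusted p = 0.000428) also differed, with 15.3 ± 4.57 and 44.97 ± 8.13 CPM in S1 and 181 ± 7.84 and 206 ± 29.6 CPM in S3 cells. With no limit on Slc7a13 and Slc22a30 the log2 change of Slco3a1 in S1 cells dropped to 0.49 and lost its call (adjusted p = 0.128).

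Il34 and C3 also rose more in S1 cells. Il34 was at 17.9 ± 2.83 CPM in sham and 16.4 ± 3.602 CPM in DOCA-salt S3 cells, a log2 change of -0.22 against 2.41 in S1 cells (difference 2.55 ± 0.23, adjusted p = 3.18e-05). For C3 the changes were 2.77 in S1 and 1.23 in S3 cells (difference 1.53 ± 0.28, adjusted p = 0.00923), and for Arhgap15 2.37 and 0.68 (adjusted p of the difference 0.00987). Odc1, of polyamine synthesis, and the adhesion molecule Cadm1 had log2 changes of -1.52 and -1.24 in S3 cells (adjusted p 0.000729 and 0.00345) and of -0.15 and -0.06 in S1 cells (adjusted p of the difference 9.86e-05 and 0.000428). Cyp2e1 and Ly6e had log2 changes of 0.87 and 1.17 in S1 cells and -0.44 and -0.93 in S3 cells (adjusted p of the difference 9.86e-05 and 0.000428). Neither gene passed the threshold in S1 cells alone or in S3 cells alone (adjusted p in S3 cells 0.34 and 0.113).

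In the other direction, Spp1 rose less in S1 cells, which held far more of it in sham mice, than in S3 cells (log2 change 3.88, adjusted p = 0.000201). It stood at 1539.5 ± 627 CPM in sham and 5266 ± 1678 CPM in DOCA-salt S1 cells and at 120.0 ± 44.8 and 1785 ± 711 CPM in S3 cells (difference -2.13 ± 0.15, adjusted p = 1.55e-06). Apoe, a lipid carrier, was at 489 ± 92.7 and 638 ± 68.3 CPM in S1 and 22.1 ± 6.74 and 202 ± 128 CPM in S3 cells (-2.70 ± 0.31, adjusted p = 0.000289). Fgf1, a growth factor, and the glutathione transferases Gsta2 and Gsta4 likewise had changes of 1.57, 1.26 and 2.07 in S3 cells but 0.32, 0.04 and 0.06 in S1 cells (adjusted p of the difference 9.86e-05, 0.000207 and 0.000428). Car3 moved in opposite directions, -1.41 in S1 and 2.09 in S3 cells (adjusted p of the difference 0.000428), at only 2.72 ± 1.37 and 11.8 ± 6.34 CPM in S3 cells. Kap had a log2 change of -1.58 in S1 and -0.01 in S3 cells (adjusted p of the difference 0.000882).

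**Figure D5:**
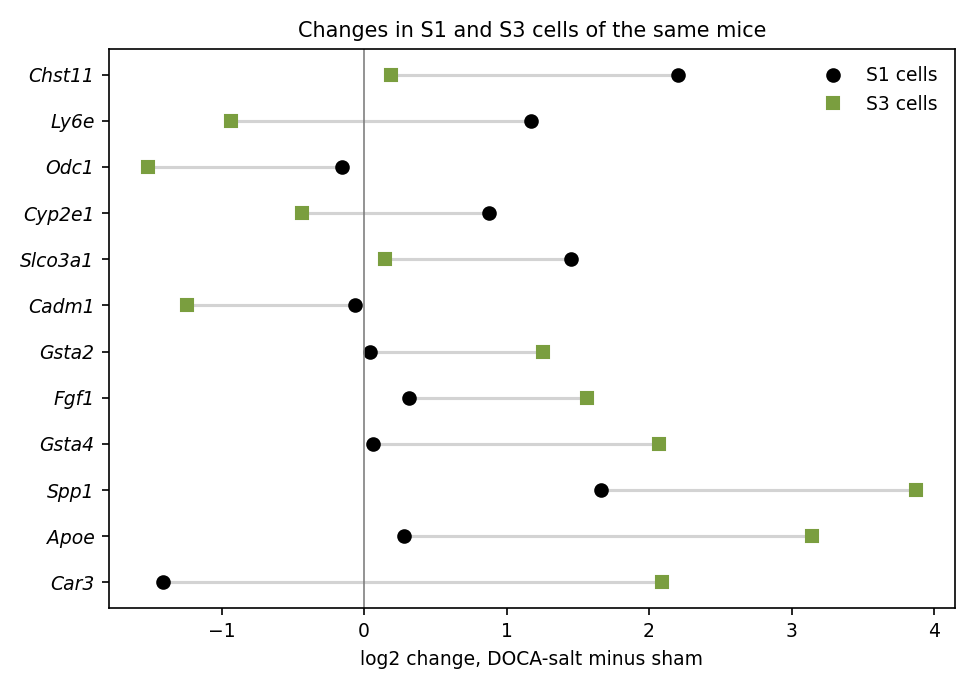
Log2 change between DOCA-salt and sham mice (horizontal axis) in S1 cells (black circles) and S3 cells (green squares) for the 6 genes in each direction with the smallest adjusted p of the difference. The largest gap is that of Car3, at -1.41 in S1 and 2.09 in S3 cells.

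Genes of the same theme did not all compare alike with S3 cells. Past the threshold were Cry2 of the clock (difference -0.71 ± 0.16, adjusted p = 0.0369), the amino acid exchanger Slc7a8 (-0.89 ± 0.17, adjusted p = 0.0116) and Cubn of endocytosis (-0.74 ± 0.12, adjusted p = 0.00492). For H2-Aa, Dbp and Slc6a19 no difference was detected. The changes were 2.09 and 2.13 for H2-Aa (difference 0.01 ± 0.37, adjusted p = 0.9995), -2.34 and -2.40 for Dbp (0.17 ± 0.25, adjusted p = 0.842) and -0.86 and -0.85 for Slc6a19 (0.06 ± 0.17, adjusted p = 0.961). For Osr2, with -1.11 in S1 and 0.26 in S3 cells, the difference of -1.31 ± 0.31 just missed the threshold (adjusted p = 0.051). Such values do not show that the segments responded alike. Against the 1096 S2-like cells, 385 of 11526 genes (3.34%) had a larger and 479 (4.16%) a smaller change in S1 cells, but leaving out 1 mouse gave 94 to 698 and 156 to 904, and no gene is singled out from that comparison.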

How the data were processed

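The authors dissociated whole kidneys, made 10x Genomics 3′ v3.1 libraries and deposited UMI counts per gene and barcode, limited to barcodes called as cells. Reads were aligned to GRCm39 with Cell Ranger, given as 9.0.0 in the submitters' processing notes and as 8.0.1 in the file headers. The same notes name Seurat 4.0.0 and R 4.0.3, which made none of the values used here. The annotation release was not given in the sources used here.

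From the deposited counts, S1 cells were gated as described, their UMIs were summed per mouse, and the 6 sums were compared with edgeR 4.0.16 (quasi-likelihood F test, TMM normalisation, filterByExpr) in R 4.3.3 with limma 3.58.1, with p adjusted by Benjamini-Hochberg across every gene tested and a threshold of 0.05. The contrast of segments was the interaction term of a model with mouse as a block. Each SE of an edgeR log2 change is its absolute value divided by the square root of its F statistic. The chance that a cell shows a gene in a draw of 3000 of its UMIs was averaged over cells to give shares at equal depth, and single values were compared by exact two-sided permutation tests, which cannot go below 0.1 here. The depth per sum gives a gene at 1 CPM fewer than 10 UMIs, and the sham sums are the shallower. Gating used Python 3.11.15, numpy 2.4.6, scipy 1.17.1 and pandas 2.3.3, and plots matplotlib 3.10.9. After the fits, the comparison in S1 cells and the contrast with S3 cells were also run on simulated counts, with results not given here. The other fits were not run on simulated counts.

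The named genes were the 12 largest rises and 12 largest falls that passed the threshold without overlap at a mean of 20 CPM or more (gate and mitochondrial genes apart), up to 4 called and 2 uncalled members of each list, 15 genes of segment function and treatment, and 6 genes in each direction for the contrast with S3 cells. A few genes that the rule selects are not reported here. Genes named outside this rule were chosen after their values were seen, as were the complement, MHC class II and clock lists. The members and all lists were chosen with earlier results of these data known. Alternatives were another normalisation or tool (DESeq2 1.42.0), no filter on low counts, other limits of the gate, thinning and the removal of each mouse. Positions are from GENCODE M39 (GRCm39) and promoter letters from RefSeq (GRCm38.p6). Reads of near-identical or overlapping genes could not be told apart, and 52 rows share a symbol with another. The labels do not say that equal sample numbers pair the mice, and the main comparison used no pairing. Barcodes under 3000 UMIs were not analysed here.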

Additional observations from a re-analysis of the deposited data

Results flagged for a closer look

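The effect of DOCA-salt differed between S1 and S3 cells of the same mice in 25 of the named genes, by edgeR's test of the difference itself at an adjusted p below 0.05. Some were named for that very test and others for their change in S1 cells, so their number is no measure of how often the segments differ. The cause of the differences was not tested.

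The log2 change in S1 cells exceeded that in S3 cells by 2.55 for Il34, 2.05 for Chst11, 1.98 for Ly6e, 1.69 for Arhgap15, 1.53 for C3, 1.42 for Odc1, 1.39 for Cyp2e1, 1.35 for Slco3a1, 1.25 for Cadm1, 1.03 for Agt and 0.77 for Cfb. For the complement gene C3, the macrophage growth factor gene Il34 and the sulfotransferase gene Chst11 the rise was thus the larger in S1 cells.

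In the other direction, the change in S1 cells minus that in S3 cells was -3.46 for Car3, -2.70 for Apoe, -2.13 for Spp1, -1.97 for Gsta4, -1.67 for Cyp4a14, -1.61 for Igfbp1, -1.48 for Kap, -1.22 for Fgf1, -1.17 for Gsta2, -1.15 for Gatm, -0.89 for Slc7a8, -0.75 for Klf2, -0.74 for Cubn and -0.71 for Cry2. The largest of these differences, that of the carbonic anhydrase gene Car3, came with S3 levels of 2.72 and 11.8 CPM in sham and DOCA-salt mice. The osteopontin gene Spp1 was more abundant in S1 than in S3 cells in both groups.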

How the results depend on the processing

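The number of genes called in S1 cells depended on the processing more than the direction of single genes, which reversed in none of the alternatives run for a called named gene. Against 162 higher and 52 lower genes, library size alone gave 245 higher, no filter on low counts 523 and 213, DESeq2 232 and 103, at most 20000 UMIs per cell 98 and 25, thinning to 3000 UMIs 76 and 30, and the gate without limits on Slc7a13 and Slc22a30 334 and 161. Without 1 mouse the counts ran from 49 to 187 and from 10 to 125, lowest without DOCA-salt 3 and highest without sham 2; without sham 1 they were 60 and 18, and without sham 3 they were 75 and 25. All 49 and all 10 genes called without DOCA-salt 3 were among those of the full comparison. The same sample numbers as a replicate block gave 126 higher and 29 lower genes. Deviations of same-numbered mice from their group means correlated at 0.09, -0.32 and 0.03. With 3 mice a group these deviations cancel out within each group, so the values cannot decide whether the numbers pair the mice.

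The difference between S1 and S3 cells was 51 higher and 124 lower. It gave 184 and 290 with no filter, 25 higher with at most 20% mitochondrial UMIs, 70 lower with library size alone, and 26 to 52 and 51 to 168 without 1 mouse. The difference from S2-like cells, 385 and 479, became 887 and 800 with at most 20% mitochondrial UMIs and 94 to 698 and 156 to 904 without 1 mouse. The share difference of 1.94 percentage points reversed to -3.20 with no limit on Slc7a13 and Slc22a30 and to -2.81 with the Slc5a12 and Slc5a2 limits alone, both chosen after seeing the data. Injury genes seen in fewer cells of every DOCA-salt mouse numbered 0, and 0 to 1 without 1 mouse. The cause of these shifts was not tested. For single genes, 2422 values kept their side of the threshold, 157 fell below it, 33 rose above it and 94 moved by more than the spread between mice. Depth limits genes below about 1 CPM, and with 3 mice a group no single permutation test could pass 0.05.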

Other observations

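Among the genes that rose in S1 cells outside the lists, 4 with a role at the cell surface or matrix, chosen after their values were seen, were higher in every DOCA-salt mouse. Col4a3, a collagen chain of the mature glomerular and tubular basement membrane, was at 110.3, 112.4 and 94.4 CPM in sham and 202, 237 and 247 CPM in DOCA-salt mice, a log2 change of 1.11 ± 0.13 (edgeR adjusted p = 0.00258). Erbb4, a receptor of neuregulins, was at 12.4, 9.97 and 13.6 CPM in sham and 30.7, 32.9 and 54.4 CPM in DOCA-salt mice (1.72 ± 0.25, adjusted p = 0.00622). Both kept their calls under all 21 alternatives. Both were more abundant in S3 cells, Col4a3 at means of 205 CPM in sham and 331 CPM in DOCA-salt mice. Erbb4 stood there at 31.8 and 74.0 CPM. At the equal depth used above, Erbb4 was seen in a mean of 2.97% of sham and 7.42% of DOCA-salt S1 cells. In thick ascending limb cells these means were 86.2% and 88.3%. The part of RNA from other cells in the rises of Col4a3 and Erbb4 was not tested.

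The adhesion molecule gene Ncam1 was at 14.8, 12.1 and 15.5 CPM in sham and 32.9, 35.7 and 45.04 CPM in DOCA-salt mice (1.43 ± 0.18, edgeR adjusted p = 0.00291), and it also kept its call throughout. Ackr3, a receptor that removes the chemokine Cxcl12, was at 57.7, 72.2 and 47.2 CPM in sham and 133, 110.02 and 124 CPM in DOCA-salt mice (1.04 ± 0.16, adjusted p = 0.00906). Its call was lost without sham 1 or without DOCA-salt 3 (adjusted p up to 0.0584).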
